A study of Mus musculus with 19 samples.

Results

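The experiment compared 8 mouse medulloblastomas from mice given 160 mg/kg of NVP-LDE225 with 3 from mice given vehicle. The tumours were taken by their descriptions in the sample labels, which left 11 of the 19 arrays of the series, 1 array per tumour. A further 8 tumours, from mice given 40 mg/kg, served to show what differed at the higher dose. Every tumour, vehicle included, had the genotype Ptch+/-p53-/-: the cells were dissociated from such tumours and grown under the skin of the right flank of nude mice (Harlan, nu/nu). Dosing began about 10 days after implantation, in groups of like mean tumour volume. The labels call the vehicle tumours sensitive and the treated ones resistant, so drug and resistance are 1 contrast here. Tumours 6 and 7 of 160 mg/kg are named resistant in the source field, the other 6 treated. Neither the length of dosing nor whether each tumour came from its own mouse is given in the labels, and the p-values reflect only how these samples spread.

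NVP-LDE225 blocks Smoothened, the membrane protein that passes on the Hedgehog signal once its inhibitor Ptch1 is lost or bound by ligand. Smoothened keeps the Gli transcription factors active, and these drive the division of cerebellar granule neuron precursors, the cells from which medulloblastoma of this type arises. When Hedgehog signalling ends, such precursors normally leave the cell cycle and mature into granule neurons. Nude mice lack a thymus and so form few mature T cells, while their macrophages and interferon responses are intact.

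The signals are MAS5 values on a linear scale, which had a trimmed mean of 150.0 on every array and medians between 32.7 and 49.7. Any pair of arrays correlated at 0.908 to 0.963 on the log2 scale. The 2 arrays least like the others were vehicle tumour 3 and 160 mg/kg tumour 2, with mean correlations of 0.9274 and 0.9303. The granule precursor factors Zic1 and Neurod1 were bright in all 8 tumours of 160 mg/kg, with lowest signals of 3632 and 2280. Atoh1, the defining factor of these precursors, had signals between 661 and 1954 in 7 of them and 22.5 in tumour 2. For testing, 2.5 was added to each signal, log2 was taken and limma was fitted to all 19 arrays at once, and a difference was called at an adjusted p under 0.05. Folds below are on that scale and are given only where the lower group mean was at least 20.

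Against vehicle, limma called 1260 of 31143 probe sets at 160 mg/kg, which is 4.05%, with 708 higher (2.27%) and 552 lower (1.77%). Each gene was then read from its brightest kept probe set. On that basis 331 of 13454 genes rose, 2.46%, and 330 fell, 2.45%, while the median log2 change over all genes was -0.07. The count depended on the vehicle tumours: it was 453, 572 and 217 without vehicle tumours 1, 2 and 3. Of the 661 genes called (4.91%), 99 were called in all 3 of those fits. Subtracting each array's median gave 837 higher and 364 lower probe sets. At 40 mg/kg 668 probe sets were called, 2.14%, and the controls of both comparisons are the same 3 tumours.

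Interferon response genes made up most of the largest falls at 160 mg/kg. Of the 33 interferon effector genes measured, 24 fell, 0 rose and 9 did not pass, with a median log2 change of -1.89. Over all genes 2.45% fell. For 19 of the 33, all 8 tumours lay below all 3 vehicle tumours, which held for 5.21% of all genes. Ifit1, which binds viral RNA, had signals of 483, 759.9 and 580.2 in the vehicle tumours, and at 160 mg/kg a lowest of 18.8, a median of 58.0 and a highest of 177. All 8 treated tumours were below all vehicle tumours, and the fall was 9.99-fold (log2 change -3.32, SE 0.57, limma adjusted p = 0.00287). Slfn8, a Schlafen family gene, ran from 17.6 to 36.1 with a median of 26.4, against 100.3, 165 and 195 with vehicle. The groups were again fully apart, and Slfn8 had the tightest values of these genes at this dose (SD 5.77 around a mean of 26.1, n = 8).

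Oasl2 and Oasl1, of the oligoadenylate synthetase family that senses double-stranded RNA, fell 8.79-fold and 6.69-fold. Oasl2 had 520.1, 766 and 644 in the vehicle tumours and 38.2 to 198 at 160 mg/kg, with a median of 73.3. Oasl1 had 341, 401 and 352 with vehicle and 20.2 to 106 at 160 mg/kg, with a median of 50.7. Neither gene overlapped between the groups. Ifi35 (5.58-fold, limma adjusted p = 0.000797), the membrane protein Ifitm3 that hinders virus entry (4.47-fold, 0.00112) and the chaperone Rtp4 (4.89-fold, 0.00112) fell in all 8 tumours below all vehicle tumours. Ifitm3 was the brightest of the 3, with a mean of 2066 ± 364 (SD, n = 3) with vehicle and 486 ± 209 (SD, n = 8) at 160 mg/kg. Samd9l fell 6.11-fold and Zbp1, a sensor of left-handed nucleic acid, fell 5.32-fold, also without overlap. Usp18, which removes ISG15 from proteins, and the GTPase Gbp6 fell 5.92-fold and 5.84-fold, each below all vehicle tumours in 7 of 8.

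**Figure D1:**
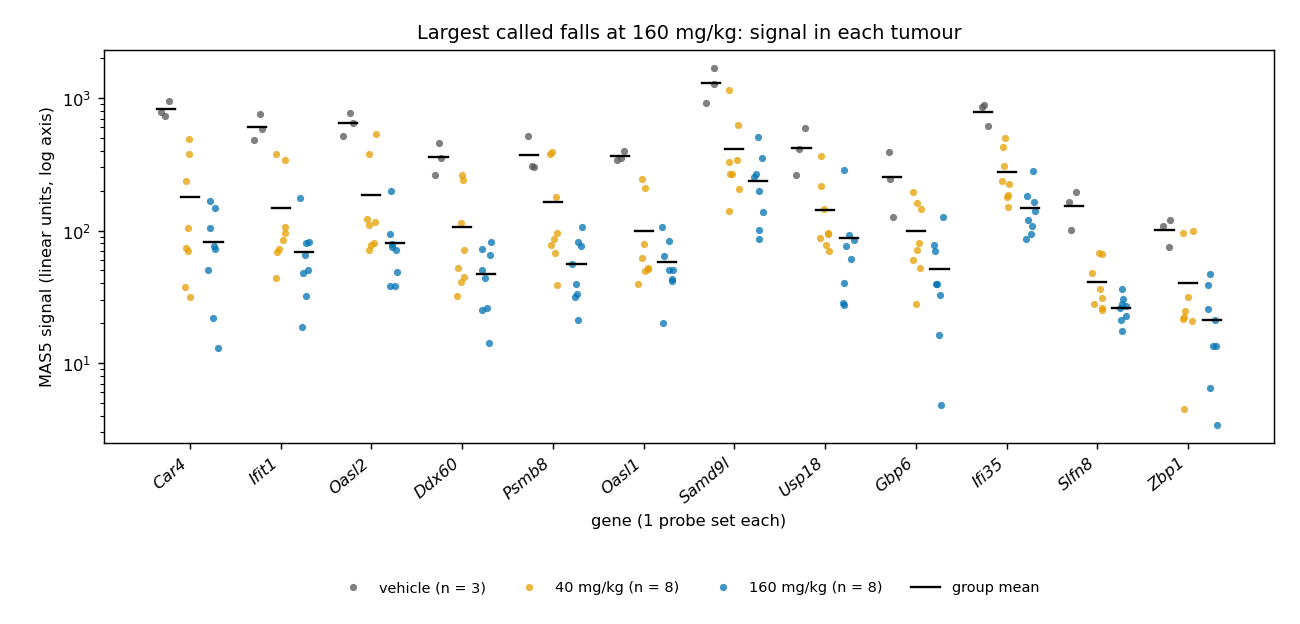
The 12 largest called falls at 160 mg/kg by the naming rule, with 1 point per tumour on a log axis of MAS5 signal and a bar at each group mean. For 10 of the 12 genes all 160 mg/kg points lie below all vehicle points, the exceptions being Usp18 and Gbp6 with 7 of 8 each.

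The calls in this list lean on the controls: 18, 11 and 8 of its genes were called without vehicle tumours 1, 2 and 3, and 8 held in all 3 fits, namely Ifit1, Oasl1, Oasl2, Ifi35, Ifitm3, Rtp4, Slfn8 and Irgm1. Without 160 mg/kg tumour 2 the count was 23. The list mean relative to the vehicle mean was -0.87 in tumour 1 and between -1.53 and -2.24 in the other 7 tumours, so tumour 1 was the nearest to vehicle. Macrophages, a host cell with strong interferon responses, were followed by 19 measured markers (median log2 change -0.09). Of these markers 0 were called, near the 4.91% of all genes. Their summed signal ran from 1806 to 2774 in the vehicle tumours and from 1123 to 8742, with a median of 2204, at 160 mg/kg. The highest value was in tumour 6, where the interferon list was lowest. In bulk tumours, fewer cells of a type and less RNA per cell cannot be told apart.

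Genes upstream of the effectors also fell. Of 21 RNA sensing, STAT and interferon regulatory factor genes, 8 fell and 0 rose (median -0.69), where 2.45% of all genes fell. Ddx60, a helicase that aids RNA sensing, had 264, 459 and 354 with vehicle and 14.1 to 82.2, median 47.0, at 160 mg/kg, an 8.03-fold fall without overlap. Ddx58, which encodes the sensor RIG-I, fell 2.58-fold (limma adjusted p = 0.00184). Its 2 other kept probe sets were lower too but not called. The transcription factors Irf1 and Irf9, the latter the DNA-binding part of the interferon-stimulated complex, fell 2.5-fold and 2.37-fold. Irf1 was 372, 397 and 374 with vehicle and 110 to 195, median 153, at 160 mg/kg, so that each treated tumour was well under each control. These 4 genes were called in all 3 fits without 1 vehicle tumour, whereas the list as a whole had 7, 5 and 4 called without tumours 1, 2 and 3. Cgas, the sensor of cytosolic DNA, was singled out after its values were seen and fell 2.58-fold, from 235 ± 25.2 (SD, n = 3) to 92.1 ± 23.3 (SD, n = 8).

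Promoter sequences of genes that fell are shown here because some hold the core of the interferon-stimulated response element. The motif searched was 2 copies of GAAA with any 2 bases between them, on both strands, in RefSeq windows (GRCm38.p6) from 250 bases before to 50 bases after each annotated start. It was found in 1079 of 27025 genes with a window, 3.99%, and in 384 of the 10819 tested genes that had one, 3.55%. Among genes that fell at 160 mg/kg it was in 40 of 273, 14.7%, and among genes that rose in 8 of 261, 3.07%. Of the interferon effectors that fell, 11 of 17 with a window held it, as did 3 of 6 RNA sensing genes and 3 of 11 antigen presentation genes. Among all tested genes of these lists, fallen or not, 14 of 23, 6 of 19 and 3 of 14 with a window held it. For comparison, the looser STAT-type motif TTCNNNGAA was in 9.55% of all genes with a window, in 30 of the 273 that fell and in 17 of the 261 that rose. The windows below are written on the strand of the gene, with motif copies in capitals (copies of TTTC mark the motif on the other strand), and overlapping copies run together. They lie at chr19:34640639-34640938, plus strand (Ifit1), chr8:61927837-61928136, plus strand (Ddx60), chr11:83020761-83021060, minus strand (Slfn8), chr2:122147437-122147736, plus strand (B2m) and chr5:114896684-114896983, plus strand (Oasl2). Ifit1 and Ddx60 have 2 copies each, Slfn8 and B2m have 1, and Oasl2 has 0 in this window. A match is a description of the letters and was not tested as a binding site.
Ifit1 promoter: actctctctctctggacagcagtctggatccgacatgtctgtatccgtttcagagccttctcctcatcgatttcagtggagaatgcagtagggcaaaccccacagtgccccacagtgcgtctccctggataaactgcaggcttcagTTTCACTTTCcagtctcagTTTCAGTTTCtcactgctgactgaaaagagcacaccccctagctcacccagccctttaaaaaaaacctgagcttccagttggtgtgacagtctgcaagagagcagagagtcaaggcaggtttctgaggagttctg
Ddx60 promoter: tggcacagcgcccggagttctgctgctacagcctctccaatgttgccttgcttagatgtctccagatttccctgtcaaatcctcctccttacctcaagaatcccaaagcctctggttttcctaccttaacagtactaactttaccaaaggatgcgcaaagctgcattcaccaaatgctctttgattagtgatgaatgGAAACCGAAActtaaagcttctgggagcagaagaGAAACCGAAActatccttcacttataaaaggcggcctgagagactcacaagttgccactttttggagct
Slfn8 promoter: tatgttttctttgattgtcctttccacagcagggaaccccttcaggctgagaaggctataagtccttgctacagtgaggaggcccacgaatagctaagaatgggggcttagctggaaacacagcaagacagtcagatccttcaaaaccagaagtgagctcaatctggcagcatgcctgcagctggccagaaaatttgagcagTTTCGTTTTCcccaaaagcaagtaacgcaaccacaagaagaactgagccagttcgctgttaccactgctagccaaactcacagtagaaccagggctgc
B2m promoter: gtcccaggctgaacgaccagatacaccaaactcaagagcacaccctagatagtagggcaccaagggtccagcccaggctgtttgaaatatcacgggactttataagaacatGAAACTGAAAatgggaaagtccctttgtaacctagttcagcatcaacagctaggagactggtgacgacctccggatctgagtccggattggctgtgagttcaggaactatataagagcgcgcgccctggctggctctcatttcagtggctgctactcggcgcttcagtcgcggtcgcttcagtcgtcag
Oasl2 promoter: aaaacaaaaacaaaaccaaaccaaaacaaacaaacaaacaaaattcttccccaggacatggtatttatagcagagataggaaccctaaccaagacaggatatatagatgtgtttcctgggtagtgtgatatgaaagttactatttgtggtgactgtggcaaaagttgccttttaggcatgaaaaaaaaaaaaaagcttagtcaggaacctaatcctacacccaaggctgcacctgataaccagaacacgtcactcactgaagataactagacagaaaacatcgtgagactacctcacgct

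Antigen presentation genes fell as a group with the highest share of calls of any list. Of 16 measured, 13 fell, 0 rose and 3 did not pass (median log2 change -1.39), and each of the 13 had all 8 tumours below all vehicle tumours. Over all genes 2.45% fell, and 5.21% had all 8 tumours below all vehicle tumours. The 3 that did not pass were Calr, Canx and Pdia3, chaperones that fold many proteins besides class I, with log2 changes of 0.05, 0.23 and 0.15. Psmb8, an immunoproteasome subunit that trims peptides for display, had signals of 300.4, 512 and 309 with vehicle and 21.3 to 106, median 47.8, at 160 mg/kg. The groups did not overlap, and the fall was 7.07-fold (limma adjusted p = 0.00855). The subunit Psmb10 fell 3.13-fold, the peptide-loading protein Tapbp 2.69-fold and the peptide-trimming enzyme Erap1 3.87-fold, all 3 called in each fit without 1 vehicle tumour. Nlrc5, the transcriptional activator of class I genes, fell from 83.8, 112 and 113 to between 13.7 and 56.6, with a median of 23.6 (3.63-fold).

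The class I chains themselves were lower too. H2-D1 had signals of 910.3, 1142 and 943 with vehicle and 361 to 538, median 443, at 160 mg/kg, a 2.23-fold fall (log2 change -1.16, SE 0.20, limma adjusted p = 0.00277) without overlap. Its 6 other kept probe sets were all lower, and 2 of them were called. H2-K1 fell 2.56-fold and the shared light chain B2m 2.08-fold, each below all vehicle tumours in 8 of 8. B2m was bright throughout, from 1061 to 1975 at 160 mg/kg against 2637, 3631 and 3463 with vehicle. H2-K1 and H2-D1 are near-identical genes whose probe sets can share signal, so their values are not independent. The list had 12, 5 and 4 genes called without vehicle tumours 1, 2 and 3.

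Among the 39 gene lists, neuronal cytoskeleton and growth genes held the largest number of called rises. Of 23 neuronal cytoskeleton and growth genes, 13 rose, 0 fell and 10 did not pass, with a median log2 change of 0.97. Over all genes 2.46% rose. For 12 of the 23 all treated tumours lay above all vehicle tumours, which held for 3.77% of all genes. Stmn2, a microtubule regulator of growing axons, had 103, 49.2 and 47.2 with vehicle and 93.5 to 1588, median 679, at 160 mg/kg. It was above all vehicle tumours in 7 of 8, the exception being the lowest treated tumour (8.73-fold, limma adjusted p = 0.0143). Its relative Stmn4 rose 8.28-fold and lay above all vehicle tumours in 8 of 8, with 1 vehicle tumour far below the other 2 (129, 103 and 4.7). Crmp1, which relays guidance signals to the cytoskeleton, rose 2.5-fold, from 688, 569 and 515 to between 1065 and 2588 with a median of 1354. Dcx, the microtubule protein of migrating neurons, rose 2.08-fold and the reticulon Rtn1 2.62-fold, each without overlap. The count for this list rested on vehicle tumour 3 above all: 7, 4 and 1 genes were called without vehicle tumours 1, 2 and 3, and Crmp1 was the 1 that held in all 3 fits.

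**Figure D2:**
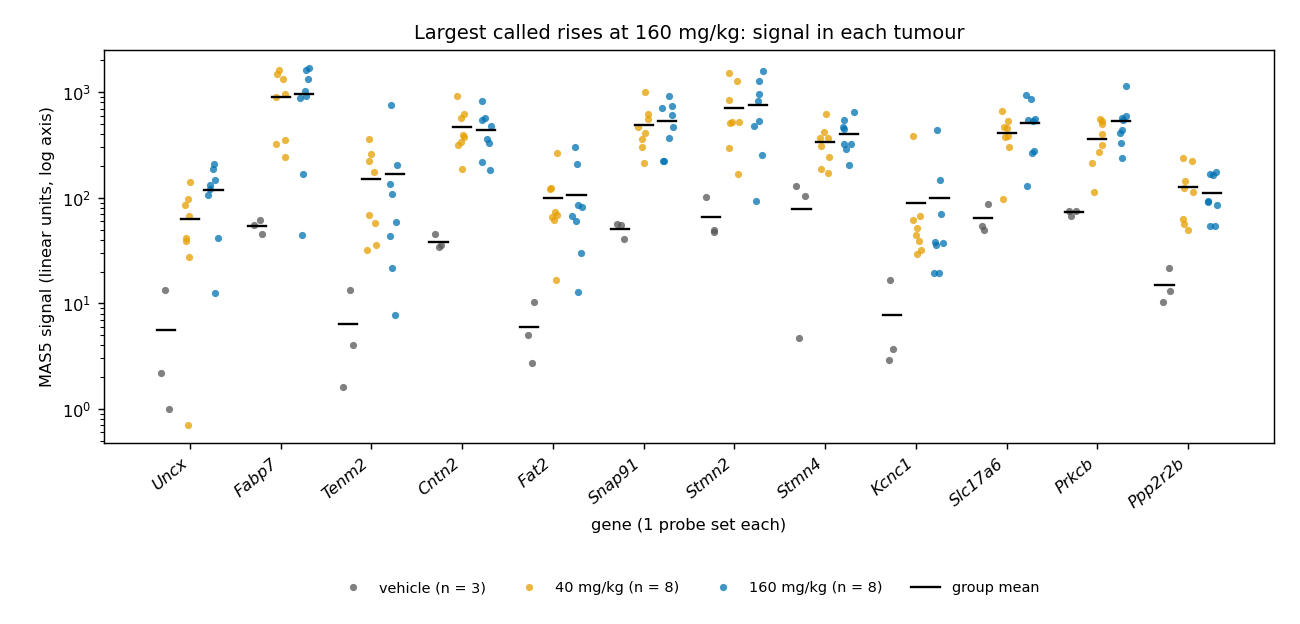
The 12 largest called rises at 160 mg/kg by the naming rule, with 1 point per tumour on a log axis of MAS5 signal and a bar at each group mean. Cntn2, Snap91 and Prkcb stand clear of vehicle in all 8 tumours, whereas Fabp7, Stmn2, Tenm2 and Uncx each have 1 tumour of 160 mg/kg within or below the vehicle range.

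Granule neuron lineage genes rose in part: 8 of 27 rose, 0 fell and 19 did not pass (median 0.42), where 2.46% of all genes rose. Cntn2, by which young granule neurons adhere and extend axons, ran from 184 to 818 at 160 mg/kg with a median of 418, against 45.1, 34.3 and 35.5 with vehicle, so the lowest treated tumour was far above the highest control. Nhlh2, a helix-loop-helix factor of postmitotic neurons, had 799, 804 and 777 with vehicle and 1412 to 2854, median 1786, at 160 mg/kg (2.31-fold, limma adjusted p = 0.000797). Sox11, a factor of immature neurons, rose 1.97-fold, with all 5 of its other kept probe sets also called. Neurod1, which drives granule neuron differentiation, rose 2.45-fold and Zic1 1.44-fold. Of the 8, Cntn2, Nhlh2 and Sox11 were called in all 3 fits without 1 vehicle tumour. Of 19 astrocyte and radial glia genes 1 rose, Fabp7, and 2 fell, Gja1 and Prom1 (median log2 change 0.17). Fabp7, a lipid-binding protein of radial glia, ran from 44.7 to 1704 at 160 mg/kg with a median of 976, against 55.2, 62.1 and 45.4 with vehicle (11.2-fold, limma adjusted p = 0.0248). Tumour 6 had the lowest value, below every vehicle tumour, and Fabp7 lost its call whichever vehicle tumour was left out.

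Some channel and synapse genes rose as well. Over all genes 2.46% rose. Of 17 ion channel genes 6 rose and 0 fell, with a median of 1.06. Kcnj3, an inward rectifier potassium channel, had 24.3, 24.3 and 53.4 with vehicle and 104 to 225, median 167, at 160 mg/kg, a 4.74-fold rise without overlap that all 3 of its other kept probe sets shared. The sodium leak channel Nalcn rose 5.07-fold, and the sodium channel Scn3a went from a mean of 3.67 with vehicle to 61.6 ± 28.4 (SD, n = 8), too dim in vehicle for a fold. Of 26 synaptic vesicle genes 3 rose, namely Snap91 (9.08-fold), the fusion factor Napb (2.77-fold) and the glutamate transporter Slc17a6 of excitatory terminals (6.82-fold). The kinase Prkcb rose 6.49-fold, with 67.3, 75.2 and 75.4 in the vehicle tumours and 238 to 1152, median 495, at 160 mg/kg. Of 33 adhesion and guidance genes 4 rose, among them Nrcam (2.38-fold) and Ncam1 (2.37-fold), and of 12 transmitter receptors 0 were called. A count of 0 of 12 is near the 4.91% of all genes called.

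**Figure D3:**
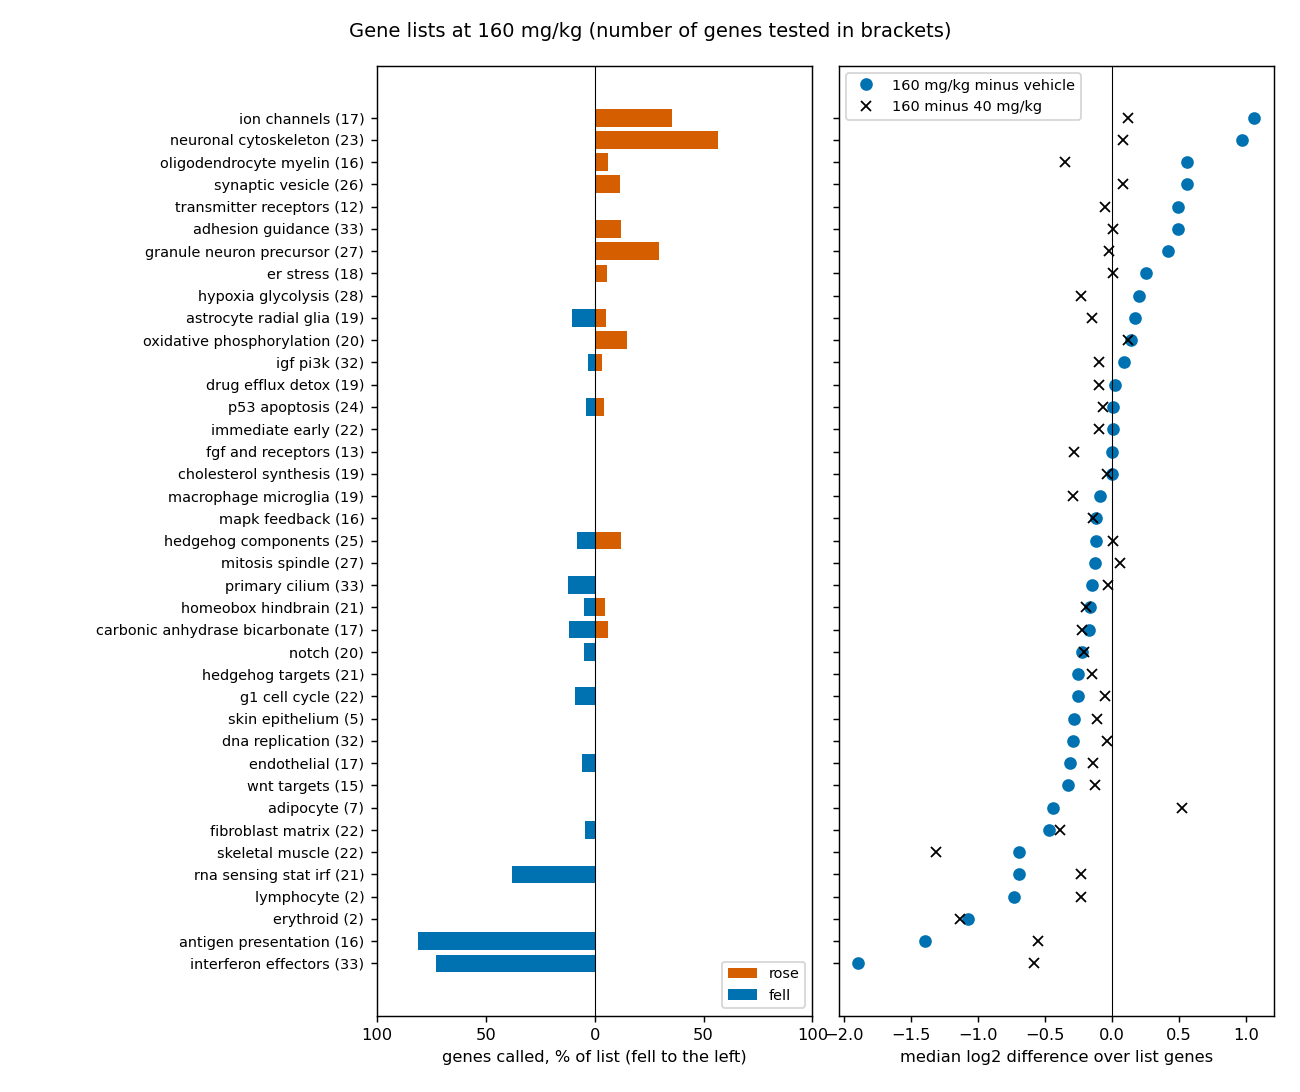
Left, the share of each gene list called at 160 mg/kg against vehicle, with rises to the right and falls to the left of 0. Right, the median log2 difference of the same genes against vehicle (circles) and against 40 mg/kg (crosses), where antigen presentation and interferon effectors lie at -1.39 and -1.89 against vehicle and at -0.55 and -0.58 against 40 mg/kg.

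Outside these groups the largest fall was that of Car4, a membrane-bound carbonic anhydrase. It had 734, 945 and 785 with vehicle and 12.9 to 168, median 74.4, at 160 mg/kg, a 12.6-fold fall without overlap (limma adjusted p = 0.0103). When the vehicle tumours were left out in turn, Car4 was called in 1 fit of 3. The anion exchanger Slc4a2 fell 1.97-fold and was called in all 3. Egfr, a growth factor receptor singled out after its values were seen, fell 2.89-fold, from 754 ± 86.7 (SD, n = 3) to 267 ± 78.4 (SD, n = 8). The stem cell surface protein Prom1 fell 2.38-fold, from 1196, 1381 and 1283 to between 387 and 677 with a median of 556. Both Egfr and Prom1 were below all vehicle tumours in 8 of 8 and were called in all 3 fits. The gap junction protein Gja1 fell 3.03-fold, the neural factor Pou3f2 2.74-fold and the Notch target Hes1 1.79-fold.

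Of 32 IGF and PI3K genes, Grb14 rose and Foxo1 fell, a share near the 4.91% of all genes called. Grb14, an adaptor that damps insulin receptor signalling, had 6.6, 8.3 and 1.7 with vehicle and 26.8 to 133, median 42.9, at 160 mg/kg. All 8 tumours were above all vehicle tumours, and no fold is given. Foxo1, a transcription factor restrained by this pathway, fell 2.06-fold without overlap. Igf1r, which binds insulin-like growth factors, changed by -0.97 on the log2 scale (SE 0.28, limma adjusted p = 0.0538) and so just missed the threshold. It passed when any of 3 single arrays was left out, none of them a vehicle tumour. Igf2, its ligand, ran from 85.8 to 2073 with a median of 264, against 152, 174 and 136 with vehicle (limma adjusted p = 0.464).

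In the Hedgehog pathway, the drug's target, 0 of 21 target genes were called (median -0.25). A count of 0 in a list of this size is near the 4.91% of all genes called. Gli1, itself a target and the usual readout of pathway activity, was 320.3, 327 and 338 with vehicle. At 160 mg/kg it was 2638 in tumour 1, 331 in tumour 3 and between 113 and 277 in the other 6 tumours. Thus 6 of 8 tumours were below all vehicle tumours, 1 was within their range and 1 was far above, and the mean difference did not pass the test (log2 change -0.26, SE 0.83, limma adjusted p = 0.888). Without tumour 1 the log2 change was -0.72, and without tumours 6 and 7 it was 0.07. Hhip, a membrane inhibitor induced by the pathway, was lowest in tumours 6, 7 and 8, at 53.8, 32.9 and 69.5, against 214, 324 and 328 with vehicle, and its highest value was 470.4. Ptch1, the receptor and inhibitor, ran from 484 to 1673 with a median of 1354, below the vehicle values of 1832, 2014 and 1830 in 8 of 8 tumours (limma adjusted p = 0.191). Smo was below all vehicle tumours in 7 of 8 (log2 change -0.54, limma adjusted p = 0.129) and the inhibitor Sufu in 7 of 8 (-0.47, 0.0931).

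Of 25 pathway components, 3 rose and 2 fell, where 2.46% of all genes rose and 2.45% fell. Gas1, a coreceptor that helps Hedgehog ligands bind, fell 2.46-fold, from 1432, 1578 and 1703 to between 364 and 884 with a median of 696, without overlap. Evc2, a ciliary partner of Smoothened, fell 1.83-fold. The kinases and scaffolds that rose were Gsk3b (1.58-fold), the protein kinase A regulatory subunit Prkar1a (1.36-fold) and Arrb1, which had a mean of 51.6 at 160 mg/kg and 19.2 with vehicle. The 5 other kept probe sets of Gsk3b were higher but not called. Each of these called components had 2 or fewer calls among the 3 fits without 1 vehicle tumour. Of 33 primary cilium genes 4 fell, where 2.45% of all genes fell. Among the 4 was the trafficking adaptor Tulp3 (1.74-fold, limma adjusted p = 0.00413), which held in all 3 fits.

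Gli2, the main activating Gli factor, was high in 2 of the 8 tumours. Its signals were 573, 631 and 645 with vehicle, 4326 in tumour 2, 1348 in tumour 5 and between 388 and 758 in the other 6. The 2 tumours differed in the genes next to Gli2 on its chromosome, which were examined after the values were seen and ordered by RefSeq (GRCm38.p6). In tumour 5 several of the neighbours were high too: the microtubule protein Clasp1 at 2223, Tsn at 4192, Nifk at 2715, the GTPase Ralb at 422, Epb41l5 at 493.4 and the phosphatase Ptpn4 at 2264. The highest vehicle values of these 6 genes were 980.0, 1263, 527, 169.5, 198 and 557, so tumour 5 exceeded each. Of the tested genes directly next to Gli2, Inhbb was not high in tumour 5, at 54.3, below the vehicle values of 65.9, 62.2 and 70.4. Tfcp2l1 was at 1.8 there, against 3.5, 1.6 and 23.4 with vehicle, too dim to be read. In tumour 2, with the highest Gli2 of all, the same 6 genes were at 1199, 1342, 532, 115, 51.0 and 502. At 40 mg/kg, Gli2 was between 1910 and 2502 in 6 tumours, in which Clasp1 was between 2818 and 4038, and it was 578 and 547 in tumours 6 and 8, in which Clasp1 was 1207 and 978. DNA copy number was not measured here.

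The smallest p-values of the direct comparison of doses fell partly on these genes. Clasp1, Ralb, Epb41l5 and Inhbb were lower at 160 than at 40 mg/kg, by log2 differences of -0.95 (95% interval -1.49 to -0.41), -1.31 (-1.99 to -0.63), -1.53 (-2.39 to -0.67) and -0.84 (-1.28 to -0.41). Each had an adjusted p of 0.64 by limma and so was not called. These genes were chosen after their values were seen, so their intervals may lie on 1 side of 0 through that choice. Gli2 itself differed by -0.95 (-1.83 to -0.06).

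No probe set passed the test between 160 and 40 mg/kg: limma called 0 of 31143, 0%, while 2122 had an unadjusted p under 0.05, and a fit without the variance trend called 1. No gene was therefore called both against vehicle and against 40 mg/kg. For Cntn2 the difference between doses was -0.09 (95% interval -0.72 to 0.53), for Snap91 0.09 (-0.55 to 0.74), for Stmn2 -0.03 (-1.08 to 1.03) and for Fabp7 -0.20 (-1.51 to 1.11). These 4 estimates were near 0, with intervals that were widest for Stmn2 and Fabp7. Other named genes of neurons had intervals on 1 side of 0, though none was called: Nhlh2 differed by 0.30 (0.05 to 0.56), the synaptic protein Cplx1 by 0.49 (0.02 to 0.95) and Nalcn by -0.82 (-1.57 to -0.07). Cplx1 was named for its small p between doses, so its interval follows from that choice. In its list of 26 synaptic vesicle genes 1 had an unadjusted p under 0.05 between doses, against 7.42% of all genes. Over the 23 neuronal cytoskeleton and growth genes the median difference between doses was 0.08, with 16 above and 7 below their 40 mg/kg level. Of all genes 45.5% were above it.

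Interferon and antigen presentation genes were lower at 160 than at 40 mg/kg in their estimates. Of 33 interferon effectors 30 were below their 40 mg/kg level, with a median log2 difference of -0.58, and 14 had an unadjusted p under 0.05. Of 16 antigen presentation genes 15 were below it, with a median of -0.55, and 9 had an unadjusted p under 0.05. Over all genes 54.5% were lower, the median was -0.02 and 7.42% had an unadjusted p under 0.05. Host cell markers were lower in their estimates as well: 22 of 22 fibroblast and matrix markers (median -0.39, 5 with an unadjusted p under 0.05), 17 of 19 macrophage markers (-0.29, 0 of them) and 14 of 17 endothelial markers (-0.14, 4 of them). Their part in the interferon difference was not tested. Psmb8 differed by -1.27 (95% interval -2.14 to -0.39), Ifi35 by -0.88 (-1.40 to -0.36), Rtp4 by -0.84 (-1.35 to -0.32), Nlrc5 by -0.96 (-1.56 to -0.37), H2-K1 by -0.91 (-1.40 to -0.42) and B2m by -0.59 (-0.94 to -0.25). All had adjusted p-values of 0.64 or more by limma. Nlrc5, H2-K1 and B2m were chosen after their values were seen, so their intervals may lie on 1 side of 0 through that choice. Psmb8, Ifi35 and Rtp4 were named by a rule that used the same 160 mg/kg tumours, so this may hold for them too. The 40 mg/kg tumours were not alike: the interferon list mean was -0.32 and -0.45 in tumours 6 and 8 and between -1.30 and -1.64 in the other 6, relative to vehicle. At 160 mg/kg 5 of 8 tumours were below all 40 mg/kg tumours on this mean.

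**Figure D4:**
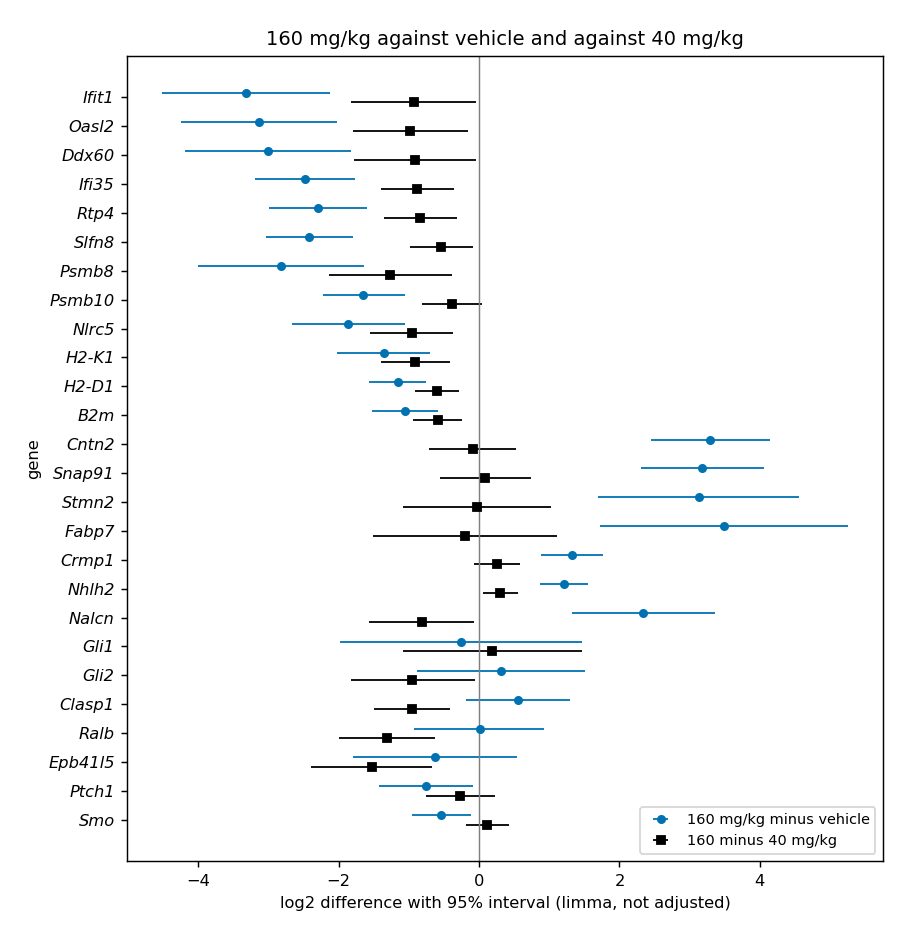
Log2 differences with 95% limma intervals, not adjusted for the number of genes, for 160 mg/kg minus vehicle (circles) and 160 minus 40 mg/kg (squares). The neuronal genes Cntn2, Snap91 and Stmn2 have squares near 0, Fabp7 has a wide interval around it, and the squares of interferon, class I and Gli2-neighbouring genes lie to the left of it.

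Among the genes with the smallest p-values between doses, Lsm14a and Ndufa2 were singled out after their values were seen. Lsm14a, an RNA-binding protein of processing bodies, was 717 to 1057 at 160 mg/kg and 1060 to 1376 at 40 mg/kg, against 940.4, 1069 and 855 with vehicle. All 8 tumours of 160 mg/kg lay below all those of 40 mg/kg (log2 difference -0.39, 95% interval -0.56 to -0.22). Ndufa2, a subunit of respiratory complex I, was above all 40 mg/kg tumours in 7 of 8 (0.34, 0.18 to 0.51). Both had an adjusted p of 0.64 by limma and were not called. Because they were picked by their dose difference, the separation and the intervals follow from the choice. How many of all genes separate in this way was not counted. Pde2a, Mapk8 and Mgl2 were likewise chosen after their values were seen. Pde2a, which breaks down cyclic nucleotides, was 199.7 to 451, median 285, at 160 mg/kg and 341 to 1341, median 739, at 40 mg/kg, against 261, 202 and 390 with vehicle. Its level at 160 mg/kg thus lay in the vehicle range for most tumours. Mapk8, the stress kinase JNK1, was 440.3 to 525 at 160 mg/kg and 358 to 489 at 40 mg/kg, a log2 difference of 0.27 (95% interval 0.13 to 0.42). The lectin Mgl2 of macrophages and dendritic cells differed by 0.83 (0.38 to 1.29). Mapk8 and Mgl2 were also called against vehicle, and held in 2 and 0 of the 3 fits without 1 vehicle tumour. Mgl2 was not in the list of 19 macrophage markers. In the oxidative phosphorylation list 17 of 20 genes were above their 40 mg/kg level (median 0.12), against 45.5% of all genes (median -0.02). Against vehicle 3 of the 20 rose, led by Ndufa1 (1.38-fold), where 2.46% of all genes rose.

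Of 27 mitosis and spindle genes 0 were called against vehicle (median -0.13), and of 32 DNA replication genes 0 were called (median -0.29). Over all genes 4.91% were called, and 0 in lists of this size is near that share. Estimates were lower for 20 of the 27, for 31 of the 32 and for 58.1% of all genes (median -0.07). Of 22 genes of the first gap phase 2 fell, the pocket protein Rbl1 1.59-fold and E2f5 1.56-fold, where 2.45% of all genes fell. Mycn and Ccnd1, which drive precursor division, had log2 changes of -0.21 (SE 0.23) and -0.49 (SE 0.20), with adjusted p-values of 0.634 and 0.179 by limma. Ccnd2 ran from 129 to 2294 with a median of 1284, against 629, 477 and 534 with vehicle. Among stress genes, Gadd45a rose 3.03-fold and the asparagine synthetase Asns 1.81-fold, while the caspase Casp8 fell 1.79-fold. In the lists of MAPK feedback, FGF, Wnt target, hypoxia, cholesterol synthesis, drug efflux and immediate early genes 0 genes were called, against 4.91% of all genes.

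The 8 tumours of 160 mg/kg differed among themselves more than those of 40 mg/kg. The SD of log2 signal was larger at 160 than at 40 mg/kg for 67.9% of genes, with medians of 0.329 and 0.266. Without tumour 2 the share was 61.6%, and without each of the others in turn it lay between 65.2% and 68.7%. Tumour 2 was low in several granule precursor factors. Besides Atoh1, it had Barhl1 at 32.7, Otx2 at 4.5 and Pou3f3 at 34.4, while the lowest of the other 7 tumours were at 336, 179.8 and 241. Its Neurod1 signal of 4933 and its Zic1 signal of 5903 were nevertheless above all vehicle tumours. The same tumour had the highest Gli2, and it had Upp1, a uridine-degrading enzyme, at 921 and the transcription factor Foxf2 at 302, where the other 7 were at most 112 and 33.1.

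Tumour 6 stood apart in another set. It had the stem cell factor Sox2 at 34.2, the glycolytic enzyme Aldoc of glia at 21.7 and the Notch target Hes5 at 1.0, with Fabp7 at 44.7. The matrix protein Thbs1 was at 420.3 and the smooth muscle protein Tagln at 444 in tumour 6, while the other 7 were at most 28.0 and 81.2. Tumour 1, with the highest Gli1, had the retinoic acid enzyme Aldh1a3 at 731 and the neuropeptide Vip at 2935. Tumour 3 had the transcription factor Zbtb20 at 4568, the others at most 1083. Tumour 8 had the myelin protein Mbp at 4220 and the adhesion molecule Chl1 at 1155. Counting genes at least 4-fold above or 4-fold below all other tumours of the dose gave 10 and 0 in tumour 1, 9 and 15 in tumour 2, 5 and 3 in tumour 6 and 11 and 0 in tumour 7. It gave 2 and 1 in tumour 3, 1 and 0 in tumour 4, 2 and 1 in tumour 5 and 4 and 1 in tumour 8. Genes counted below had to pass a further floor on the signal of the other tumours, so the counts above and below are not on equal terms.

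**Figure D5:**
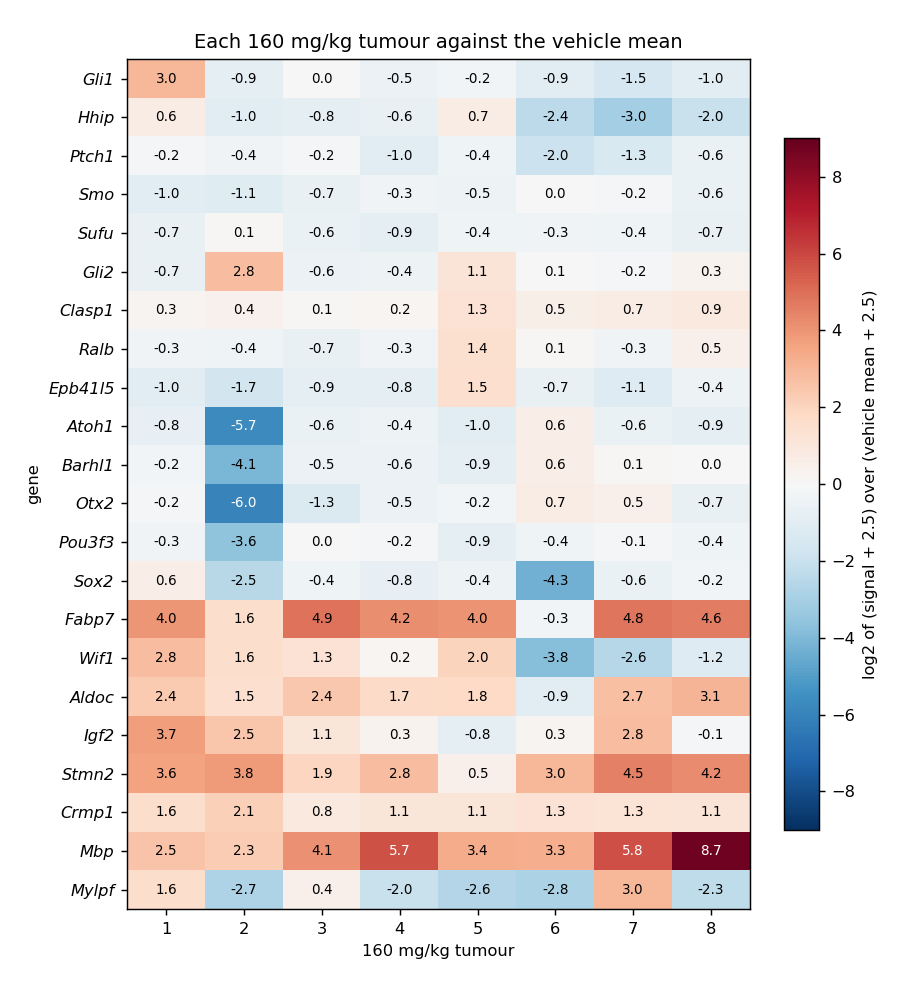
Each 160 mg/kg tumour against the vehicle mean, as log2 of signal plus 2.5, for 22 genes. Tumour 1 is alone in high Gli1, tumour 2 is alone in low Atoh1, Barhl1, Otx2 and Pou3f3, tumour 5 has the highest Clasp1, Ralb and Epb41l5 (1.3, 1.44 and 1.54 above the vehicle mean, against at most 0.88, 0.49 and -0.45 in the others), and Crmp1 is raised in all 8.

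Markers of host tissue varied between tumours. Skeletal muscle markers, 22 measured, had a summed signal of 958 to 4400 with vehicle and of 294 to 13458, median 770, at 160 mg/kg. Tumour 7 carried most, with the myosin light chain Mylpf at 2083. Of these markers 0 were called, against 4.91% of all genes, and all 22 were below their 40 mg/kg level (median log2 difference -1.31). With the muscle list mean as a covariate, 1578 probe sets were called against vehicle. Of 22 fibroblast and matrix markers 1 was called, the lysyl oxidase Loxl1, which fell 2.72-fold. Of 17 endothelial markers 1 was called, the vascular receptor Flt1, which fell 1.81-fold. The 3 other kept probe sets of Flt1 were lower but not called. Both lists had a share near the 4.91% of all genes called. Lymphocyte markers passed the filter on dim probe sets for 2 of 13 genes. Of 16 oligodendrocyte and myelin markers Cspg4 rose, from a mean of 4.17 to 61.5, again a share near 4.91%. Xist, expressed from the inactive X chromosome of females, was at 2756 and 5087 in tumours 4 and 8 and between 104 and 467 in the other 6, against 2780, 2885 and 4077 with vehicle.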

How the data were processed

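RNA of 19 tumours was measured on 1 Affymetrix array each, from about 100 mg of frozen tissue. The authors deposited signal intensities made with MAS5, per the submitters' processing notes. The series text names the 430A 2.0 array, while the 45101 probe sets are those of the full 430 2.0 annotation. After 64 controls were removed, 34945 probe sets had 1 gene symbol, 932 several and 9160 none, and 34741 matched RefSeq (GRCm38.p6). A probe set was kept if its signal exceeded the array's 40th percentile in 3 or more tumours. limma 3.58.1 (R 4.3.3) fitted 3 group means to log2 of signal plus 2.5, with a variance trend, 16 residual degrees of freedom, two-sided tests and Benjamini-Hochberg adjustment over 31143 probe sets. Intervals are 95% and unadjusted. The fit was tested on simulated data. No batch information was used.

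The members and the 39 gene lists were chosen with earlier results of these data known. Genes named were the 12 largest called rises and falls with a higher group mean of at least 100, a Hedgehog and growth panel, up to 4 genes with the smallest p per list (2 between doses), the 12 most variable at 160 mg/kg, and genes stated or listed here as chosen after their values were seen: H2-K1, H2-D1, B2m, Nlrc5, Cgas, Egfr, Otx2, Barhl1, Pou3f3, Sox2, Upp1, Foxf2, Epha3, Cxcr4, Thbs1, Tagln, Aldh1a3, Vip, Zbtb20, Pde2a, Lsm14a, Ndufa2, Mapk8, Mgl2 and the neighbours of Gli2.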

Additional observations from a re-analysis of the deposited data

Results flagged for a closer look

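Single tumours of 160 mg/kg stood far from the other 7 in 33 of 257 genes examined, by a test of the gap at the end of the group's range that flags about 1 gene in 20 by chance. Some of these genes had been picked because 1 tumour stood out, so the number is no measure of chance. Tumour 2 accounted for 16 and tumour 6 for 9. No cause was tested.

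Tumour 2 was lowest in the transcription factors Atoh1 (22.5), Barhl1 (32.7), Otx2 (4.5), Pou3f3 (34.4), Tcf7l2 (20.5) and E2f5 (220.0) and in the Notch target Hey1 (117.3). It was also lowest in the receptors Epha3 (19), Cxcr4 (249.7) and Gria3 (8.5), in keratin Krt10 (161.2), in Psmb10 (64.3) and in Slc4a2 (53). It was highest in the stress factor Atf4 (2125.8), the synaptic protein Cplx1 (1056.9) and Foxf2 (302.2).

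Tumour 6 was lowest in Aldoc (21.7), Hes5 (1.0), Notch1 (82.8), the glutamate receptor Grin2b (3.9) and Gadd45g (149.4). It was highest in Thbs1 (420.3), Tagln (444.3), the potassium channel Kcnd3 (840.9) and the leukocyte integrin Itgb2 (153.8).

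Tumour 8 was lowest in the cadherin Cdh2 (984.2) and the cytokinesis gene Ect2 (850.9) and highest in the glucose transporter Slc2a3 (1833.6). Tumour 1 was highest in Gli1 (2637.7) and the desmosome gene Dsp (79.6), tumour 7 in the myosins Myh1 (162.4) and Myh4 (125.3), and tumour 5 in Epb41l5 (493.4).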

How the results depend on the processing

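The number of probe sets called against vehicle, 1260, moved by more than 1.5 times with array weights (6145), when 160 mg/kg and vehicle were fitted alone (629), with a 2-fold minimum (550) and without vehicle tumour 3 and 160 mg/kg tumour 2 together (220). Leaving out 1 array at a time gave 217 to 1544. Under the other settings it lay between 842 and 1578, the lowest with the replicate number as a block. The replicate numbers did not pair the tumours (correlations of deviations from -0.128 to 0.0904), and the block gave 0 calls between doses. Between doses the count was 0 except without the variance trend, where it was 1, and 0 genes were called in both comparisons under every setting. Of 2973 alternative values of 85 called named genes, 0 reversed and 369 lost the call. Among uncalled genes Gli1 (-0.72 to -0.08 with 1 array left out) turned to 0.07 without tumours 6 and 7, Gli2 to -0.05 without 160 mg/kg tumour 2 (highest 0.44 with 1 array left out) and to -0.02 without that tumour and vehicle tumour 3, and Mycn to 0.09 with the mean of all its probe sets. The causes were not tested. The number of arrays, 3 with vehicle and 8 at each dose, limits the precision.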
